A study of Mus musculus with 4 samples.

Results

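The regions described here are Tfcp2l1 binding sites in gene deserts, the stretches of a chromosome that lie far from protein-coding genes. A peak of repeat 1 was taken when it overlapped a peak of repeat 2 by at least 1 bp and lay on an autosome. Its summit, the base of highest signal, had to lie in no protein-coding gene of GRCm38, more than 100 kb from every end of such a gene and more than 1 kb from any end of a long non-coding RNA (lncRNA) gene. This left 2663 of 43258 shared autosomal peaks, or 6.16% (95% interval 5.93 to 6.39). Of the shared peaks, 19095 lay outside protein-coding genes, 2810 of these lay beyond 100 kb, and 147 were then removed for a lncRNA gene end. The 2663 peaks overlapped 2656 peaks of repeat 2, so a few share a partner there, and 15 overlapped more than 1.

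Binding was measured by ChIP-seq, in which chromatin held by an antibody is sequenced and set against input chromatin. The study has 2 ChIP libraries, made with 10 µg of a custom antibody to mouse Tfcp2l1, and 2 input libraries, 1 of each per repeat. All come from untreated wild-type mouse embryonic stem cells kept with 1000 units/mL of LIF and the kinase inhibitors CHIR99021 (3 µM, against GSK3) and PD0325901 (1 µM, against MEK), a mixture called 2i with LIF. The design asks where the factor binds. Nothing says that the repeats were separate cultures, so their spread may be technical. Filtered ChIP depth was 19353473 tags in repeat 1 and 22555373 in repeat 2, and filtered input depth was 18446758 and 23825930. Pairs of values below are for repeat 1 and then repeat 2, fold enrichment over input and score are the authors' values per peak, and peaks of 1 library are not replicates, so no p-value is given.

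Tfcp2l1 is a transcription factor of the CP2 family. It acts downstream of LIF and STAT3 and of GSK3 inhibition to keep mouse embryonic stem cells in the naive state. Factors of this family bind DNA as oligomers at a pair of short direct repeats. Gene deserts often flank developmental regulators and can carry distal enhancers, which act on a promoter over long distances, and they also hold non-coding RNA genes.

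Sequence could be read for desert peaks only where they touch an annotated RNA gene, since no genome was used here. Of 8 RefSeq promoter windows (GRCm38.p6, 250 bases before to 50 after a start) that desert peaks overlapped, 1 held the peak's summit. The rule keeps summits more than 1 kb from lncRNA gene ends, so a window at such an end could not hold one. The window with the summit belongs to the lncRNA gene Gm35551, in the desert between Haao and Zfp36l2. It is shown because it gives the bases under a strong desert summit. The window is chr17:84026272-84026571 on the minus strand, printed 5′ to 3′, with the match to the searched pattern in capitals. The pattern is CCNG, then 6 bases of any kind, then CCNG, searched on both strands, so also CNGG, 6 bases and CNGG.
Gm35551 window: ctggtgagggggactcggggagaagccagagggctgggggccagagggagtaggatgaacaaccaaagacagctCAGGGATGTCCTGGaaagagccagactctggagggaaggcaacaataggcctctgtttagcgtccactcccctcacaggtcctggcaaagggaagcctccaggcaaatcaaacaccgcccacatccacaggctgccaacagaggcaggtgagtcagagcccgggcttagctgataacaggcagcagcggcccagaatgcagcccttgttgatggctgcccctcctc
The summit fell at base 259 of these 300 bases, and the match began at base 75, with its centre 177.5 bp from the summit. The peak, chr17:84025829-84026987, was enriched 52.4-fold and 34.5-fold with 173 and 159 tags. Among all autosomal promoter windows, 29.6% (9280 of 31396) held this pattern. The share was 54.7% (1190 of 2176) for windows with the summit of a shared peak and 27.7% (8090 of 29220) for windows without one. Base composition was not matched between these sets, and a match describes letters, not a site.

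A desert peak also overlapped part of a microRNA cluster on chromosome 12, in the desert between Rtl1 and Dio3. Rtl1 and Dio3 are imprinted, paternally expressed genes, and the microRNAs between them are expressed from the maternal chromosome. The peak chr12:109743207-109744211 lay within the lncRNA gene Mirg and overlapped the hairpins of Mir409, Mir412, Mir369 and Mir410. Their mature sequences (RefSeq, GRCm38.p6) follow, with the seed, bases 2 to 8, in capitals.
mmu-miR-409-5p: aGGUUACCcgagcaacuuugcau
mmu-miR-409-3p: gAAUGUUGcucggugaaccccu
mmu-miR-412-5p: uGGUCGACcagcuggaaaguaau
mmu-miR-412-3p: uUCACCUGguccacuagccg
mmu-miR-369-5p: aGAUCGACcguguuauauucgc
mmu-miR-369-3p: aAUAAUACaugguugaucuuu
mmu-miR-410-5p: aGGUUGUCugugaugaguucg
mmu-miR-410-3p: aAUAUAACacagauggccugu
None of these 8 shares its seed with another of them. Enrichment of this peak was 16.5-fold and 5.89-fold with 54 and 25 tags, so the value in repeat 2 was below the lower quartile of desert peaks there (7.68-fold). For some microRNA genes of the same cluster, such as Mir539 and Mir376c, the mature sequences at hand held only the 5p form. Among those at hand from genes with a desert peak within 10 kb, seeds were shared by 2 pairs. These were miR-376b-5p with miR-376c-5p and miR-496a-5p with miR-453, which are shown for that reason.
mmu-miR-376b-5p: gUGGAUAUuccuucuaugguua
mmu-miR-376c-5p: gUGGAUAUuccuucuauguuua
mmu-miR-496a-5p: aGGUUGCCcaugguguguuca
mmu-miR-453: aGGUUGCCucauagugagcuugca

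Deserts held fewer shared peaks than the rest of the genome for their length. The sequence that meets the distance rules came to 648.6 Mb, 27.0% of the autosomal sequence, and held 4.11 shared peaks per Mb. The remaining 1754 Mb held 23.1 per Mb. The ratio of desert to other density was 0.177 (counting interval 0.170 to 0.184), and it was below 1 on all 19 autosomes. On chromosome 13 the deserts held 6.44 per Mb against 20.5 elsewhere, and on chromosome 3 they held 3.12 against 17.5. Density was lower in each farther bin, with no step at 100 kb in the plot of density by distance. It was 11.9 per Mb at 50 to 100 kb from a gene, 7.60 at 100 to 200 kb and 1.66 beyond 1000 kb. These bins also count the peaks at lncRNA gene ends.

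**Figure D1:**
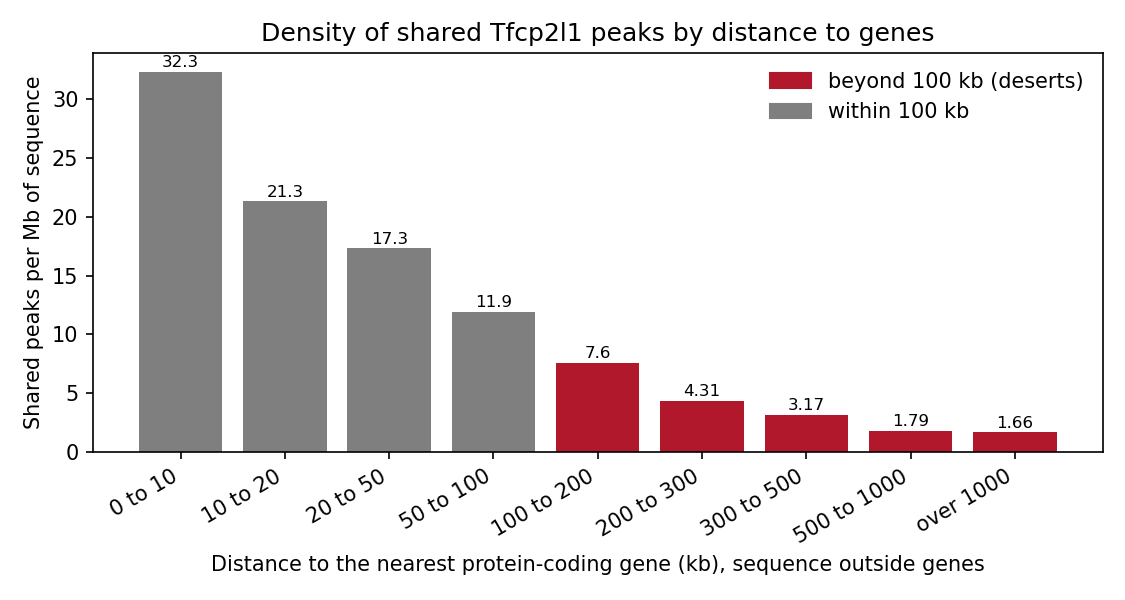
Bars give shared Tfcp2l1 peaks per Mb of autosomal sequence outside protein-coding genes (y axis) by distance to the nearest such gene in kb (x axis), in red beyond 100 kb and in grey within it. Density is 32.3 per Mb within 10 kb of a gene, 7.60 at 100 to 200 kb and 1.66 beyond 1000 kb.

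Within the deserts, most peaks lay near the edge. The median distance to a protein-coding gene was 188 kb, with quartiles of 134 and 329 kb. There were 1418 desert peaks (53.2%) at 100 to 200 kb, 479 at 200 to 300 kb, 416 at 300 to 500 kb, 243 at 500 to 1000 kb and 107 beyond 1000 kb. Median enrichment was 14.01-fold and 11.4-fold in the nearest of these bins and 11.1-fold and 9.62-fold in the farthest. The peak farthest from any gene, chr18:27729265-27730071, lay 1975 kb from Celf4, a neuronal RNA-binding protein, with 7.21-fold and 5.49-fold enrichment and 24 and 22 tags. The threshold itself marked no jump in these values. The 245 peaks at 100 to 110 kb had medians of 14.5-fold and 11.8-fold, and the 270 shared peaks at 90 to 100 kb had 14.5-fold and 11.4-fold. Just inside lay peaks beside Pfdn4 (100.049 kb, 10.6-fold and 9.03-fold), Mrm1 (100.051 kb, 36.7-fold and 29.0-fold) and Hibadh (100.091 kb, 19.3-fold and 18.1-fold). Just outside lay peaks beside Foxd1 (99.955 kb, 10.4-fold and 6.28-fold), Btg1 (99.874 kb, 128-fold and 78.5-fold) and Adcyap1 (99.786 kb, 42.5-fold and 29.6-fold).

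A smaller share of desert peaks than of other peaks was found again in the other repeat. Of all desert peaks of repeat 1, 2663 of 3889 (68.5%, interval 67.0 to 69.9) overlapped a peak of repeat 2, against 77.0% (76.6 to 77.3) of the peaks outside deserts and 76.4% of all autosomal peaks. Of all desert peaks of repeat 2, 2659 of 3331 (79.8%, 78.4 to 81.2) overlapped a peak of repeat 1, against 85.2% (84.9 to 85.5) outside deserts and 84.9% of all. The mean difference was -6.94 ± 2.18 percentage points (SD, n = 2 repeats). Both shares count the same overlapping pairs, so these 2 values are not independent and the SD is no replicate error. The desert share was lower on 19 and 17 of 19 autosomes. Within bins of fold, the gap lay mainly among weak peaks. All desert peaks of a list were also weaker, with medians of 10.15-fold and 9.29-fold, against 12.23-fold and 10.2-fold outside deserts. How much of the overall difference this mix of fold makes up was not tested. At 5- to 7.5-fold, 33.1% of desert peaks and 41.0% of others from repeat 1 were found again in repeat 2. For peaks of repeat 2 found again in repeat 1, the shares were 56.8% and 63.7%. Below 5-fold they were 18.8% (6 of 32) and 31.0% for repeat 1, and 55.3% and 54.5% for repeat 2. From 15-fold up the shares were within 1 percentage point of each other in each bin, and all 396 desert peaks of repeat 1 at 25- to 50-fold and all 176 above were found again.

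**Figure D2:**
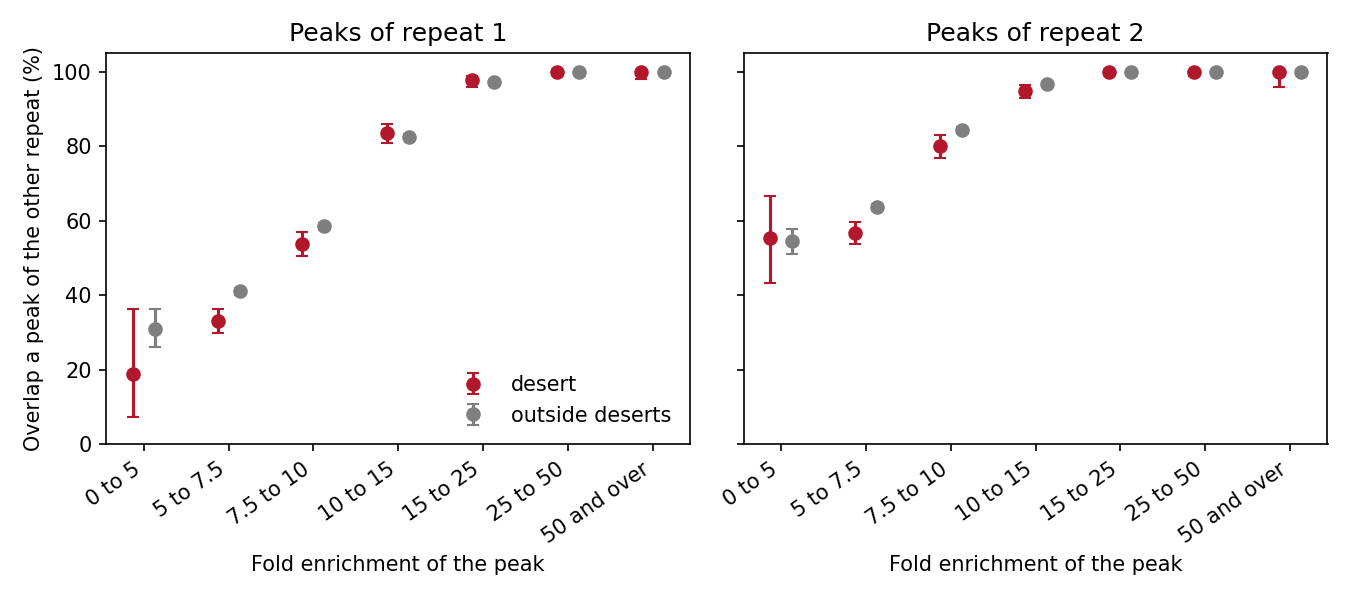
The share of peaks that overlap a peak of the other repeat (y axis, percent) is plotted by the peak's own fold enrichment (x axis) for desert peaks (red) and peaks outside deserts (grey), with exact 95% binomial intervals. At 5- to 7.5-fold the desert share is 33.1% against 41.0% in repeat 1 and 56.8% against 63.7% in repeat 2, and both groups reach about 100% at high fold.

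Where they were shared, desert peaks were slightly weaker and shorter than the rest. Median enrichment was 13.4-fold in deserts and 15.5-fold elsewhere in repeat 1, and 11.0-fold in deserts and 11.8-fold elsewhere in repeat 2. The log2 ratio of the medians was -0.20 and -0.10, or -0.15 ± 0.07 (SD, n = 2), and the desert median was lower on 19 and 17 of 19 autosomes. The middle 50% of values overlapped widely, from 9.18 to 22.6 in deserts and from 10.01 to 28.02 elsewhere in repeat 1. Median tags per peak were 45 in deserts and 59 elsewhere in repeat 1, and 50 and 57 in repeat 2. Median length was 883 bp in deserts and 987 bp elsewhere, then 932 and 998 bp. Against intergenic peaks 10 to 100 kb from genes, which had medians of 14.98-fold and 11.8-fold, the log2 ratio was -0.16 and -0.10.

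**Figure D3:**
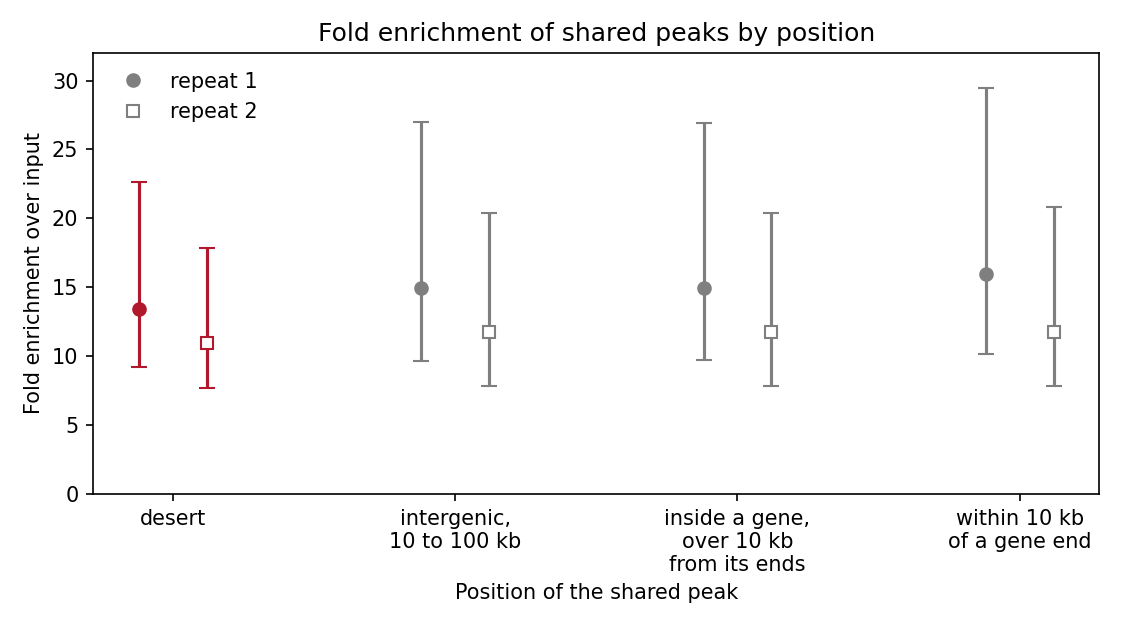
Points give the median fold enrichment (y axis) and bars the quartiles of shared peaks in repeat 1 (filled circles) and repeat 2 (open squares), for deserts (red) and for 3 other positions (grey). Desert medians are 13.4 and 11.0, and those of the other positions lie between 14.98 and 15.94 in repeat 1 and at 11.8 in repeat 2.

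Strong peaks made up a smaller share of the desert peaks than of the others. Of the desert peaks, 1344 (50.5%, interval 48.6 to 52.4) reached 10-fold in both repeats, against 55.5% of other shared peaks and 55.2% of all. The strongest 10% of all shared peaks, by mean rank of fold, included 173 desert peaks (6.496%), against 10.2% of other peaks. Together the desert peaks held 4.76% and 5.14% of the tags in shared autosomal peaks. Enrichment of the same peak in the 2 repeats followed a similar order in deserts (Spearman's rho 0.794 across 2663 peaks) and elsewhere (0.800), as a description over peaks that share libraries. The summits of matched peaks were a median of 30 bp apart in deserts and 28 bp elsewhere. Repeat 1 had the higher fold at 73.4% of desert peaks and 77.5% of others.

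**Figure D4:**
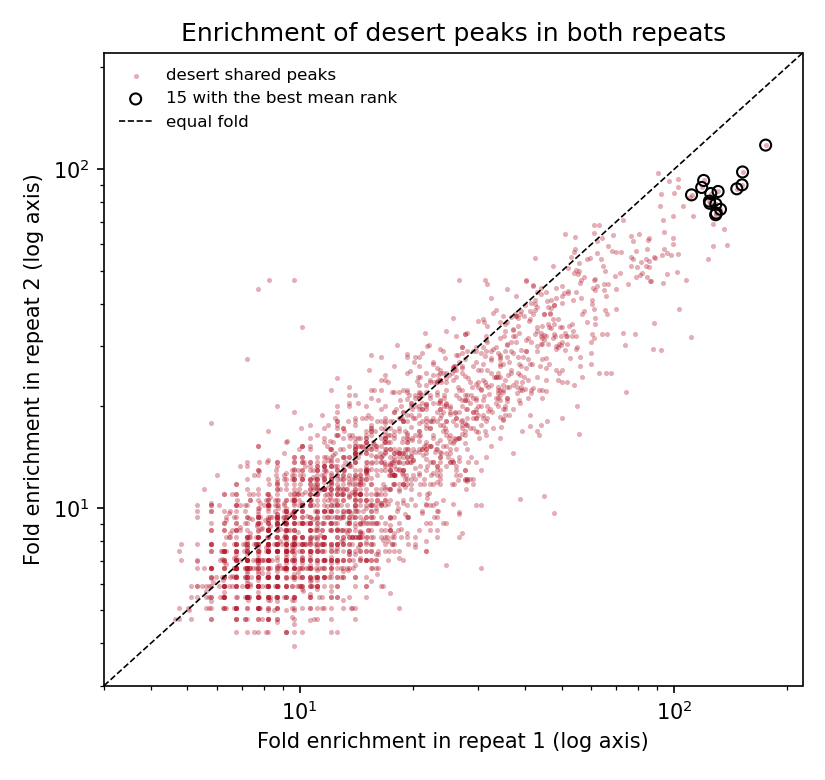
Each point is 1 of the 2663 desert peaks, with fold enrichment in repeat 1 (x axis) and repeat 2 (y axis), both on log axes, and the 15 strongest by mean rank are circled. The circled peaks lie between 111- and 175-fold in repeat 1 and between 73.4- and 118-fold in repeat 2, and most points lie below the dashed line of equal fold.

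The strongest desert peak, chr5:119309870-119311192, lay 360.0 kb from Tbx3, a T-box transcription factor that supports naive self-renewal, in the desert between Med13l and Tbx3. It was enriched 175-fold and 118-fold with 557 and 519 tags. The next lay 185 kb from Rasgef1b, a guanine nucleotide exchange factor, inside the lncRNA gene A930011G23Rik (chr5:99437108-99438298, 152-fold and 98.1-fold, 445 and 426 tags). The third, inside the lncRNA gene Gm39458, lay 105.5 kb from Rpl14, a ribosomal protein gene, and 253 kb from Ctnnb1, which encodes beta-catenin. That peak, chr9:120679517-120680707, was enriched 152-fold and 89.9-fold with 452 and 391 tags. A peak between the receptor tyrosine kinase genes Kit and Kdr followed (chr5:75832254-75833006, 147-fold and 87.5-fold, 425 and 375 tags), at 100.175 kb from Kdr and so barely inside the rule.

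Genes of transcription factors or chromatin regulators bordered several others of the 15, and not always as the nearest gene. The share of such genes among the 15 was not set against all desert borders. The peak beside Mycn, a MYC family gene active in embryonic stem cells, was enriched 131-fold and 85.9-fold with 467 and 403 tags (chr12:12787669-12789402). The peak beside Sox2, a core pluripotency factor, lay 109 kb downstream of that gene (chr3:34760897-34762167, 124-fold and 79.3-fold, 453 and 447 tags), on the side where a distal control region of Sox2 in embryonic stem cells is known. A peak inside the lncRNA gene A330076C08Rik lay 407 kb from Cd83, an immune cell surface protein (125-fold and 84.8-fold). Jarid2, a subunit of Polycomb repressive complex 2, lay on its other side at 520 kb. A peak between Tox3 and Chd9, a chromodomain helicase, reached 133-fold and 76.1-fold.

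The rest of the 15 lay beside Elavl2, an RNA-binding protein of neurons (120-fold and 92.6-fold), Chodl (118-fold and 88.3-fold), Wac (124-fold and 80.5-fold), Mms22l, a DNA repair gene (129-fold and 74.2-fold, inside the lncRNA gene Gm27243), and Manea, a mannosidase (129-fold and 73.4-fold). Eef2kmt, a methyltransferase of elongation factor 2, was nearest to a pair of them, at 218 kb (129-fold and 78.9-fold) and at 110.42 kb (111-fold and 84.0-fold, inside the lncRNA gene Gm41414). The 15 ranged from 100.175 kb at Kdr to 598 kb at Manea in distance to a gene.

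Peaks were spread unevenly over deserts. Of 1388 deserts, 829 (59.7%) held at least 1 desert peak, 306 held 1 and 344 held 2 to 4. The 179 deserts with 5 or more held 1438 peaks, 54.0% of them. Deserts without a peak had a median span of 83.5 kb and those with one 384 kb. Density was lower in longer deserts, at 11.0 peaks per Mb in those up to 200 kb and 1.82 per Mb in those over 2000 kb. The longest desert with none, between 4931417E11Rik and Ctnna2, a catenin gene of neurons, spanned 3212 kb.

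The desert with most peaks lay between Mn1, a transcriptional coregulator, and Cryba4, a lens crystallin, and held 28, with medians of 16.2-fold and 10.3-fold. Its highest peak in repeat 1 lay nearest to Cryba4 (chr5:112086769-112087943, 75.4-fold and 45.9-fold), and its highest in repeat 2 lay nearest to Mn1 (chr5:111836109-111837524, 57.3-fold and 48.0-fold). The one between Cd83 and Jarid2 held 26, and 11 of these lay inside a lncRNA gene. In the desert between Enc1 and Arhgef28, 22 peaks lay within 278 kb, and 15 of these lay inside a lncRNA gene. That held for 4 of the 28 peaks between Mn1 and Cryba4 and for 0 of the 15 between Nphp4 and Ajap1. The desert between Plekhb2 and Hs6st1, a heparan sulfate sulfotransferase gene, held 18. That between Nmbr, the neuromedin B receptor gene, and Cited2, a coregulator that binds CBP and p300, held 17 over 2637 kb. The deserts between Nphp4 and Ajap1 and between Rragc, a Rag GTPase gene, and Pou3f1, a POU factor of the epiblast, held 15 each, as did that between Tle3, a corepressor gene, and Rplp1. The deserts of this paragraph thus differ in crowding, at 53.2 peaks per Mb between Enc1 and Arhgef28 and 6.22 between Nmbr and Cited2. The shorter desert between Haao and Zfp36l2, named above, held 12 peaks at 106 per Mb.

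A few deserts are crowded with other annotation. The one between Gm36448 and Dad1 held 25 peaks and 132 antigen receptor segments, most often Trav segments of the T cell receptor alpha locus, which the rule does not count as protein-coding genes. Its medians were 11.0-fold and 9.81-fold. The desert between Adam6a and Zfp386, with 168 segments of the immunoglobulin heavy chain locus, held 1 peak. Of all desert peaks, 16 overlapped a segment. A lncRNA gene held 433 desert peaks (16.3%, interval 14.9 to 17.7), against 17.6% of intergenic peaks 10 to 100 kb from genes. Medians were 14.5-fold and 11.8-fold for desert peaks inside lncRNA genes, and 13.04-fold and 10.9-fold for desert peaks outside them. The word desert thus refers to protein-coding genes alone.

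A smaller share of desert peaks than of other shared peaks had a close neighbour. Another shared peak lay within 10 kb of 854 desert peaks (32.1%, interval 30.3 to 33.9), against 61.1% of other shared peaks, 56.3% of intergenic peaks 10 to 100 kb from genes and 59.3% of all. The desert share was lower on all 19 autosomes. It was 41.7% at 100 to 200 kb from genes and 8.41% beyond 1000 kb. Shared peaks were also sparser in deserts, at 4.11 per Mb against 23.1 elsewhere, and sparser peaks have fewer close neighbours. The shares were not adjusted for density, so they do not say whether desert peaks cluster less than others. Desert peaks with a neighbour had medians of 14.5-fold and 11.7-fold, and those without one 12.8-fold and 10.6-fold. Joined where summits lay at most 10 kb apart, the desert peaks formed 2186 runs, of which 1859 were single peaks and 89 held 3 or more. The longest runs held 9 peaks over 25.2 kb beside Slc22a12, a urate transporter gene, 8 over 28.3 kb beside Ajap1, and 7 each beside Mycn and Enc1.

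The desert beside Sox2 shows a run and a scatter. Its 12 peaks lay 101 to 672 kb from the gene, and 6 of them fell within 15.8 kb. In that run the values were 24.6-fold and 13.3-fold at 101 kb, 38.7-fold and 22.4-fold at 103 kb, 31.4-fold and 31.4-fold at 104 kb, 6.29-fold and 7.06-fold at 106 kb, 124-fold and 79.3-fold at 109 kb, and 7.15-fold and 6.67-fold at 116 kb. The peak at 109 kb was the highest of the desert in both repeats. Beyond it, the next highest lay at 672 kb, with 22.2-fold and 17.3-fold.

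The desert between Cyria and Mycn held 13 peaks, 103 to 354 kb from Mycn, and 2 stood out in both repeats. One, at 147 kb, is named above, and the other, at 220.296 kb from Mycn, reached 105.3-fold and 77.7-fold with 324 and 351 tags. The other 11 lay between 4.77- and 31.2-fold in repeat 1 and between 5.49- and 28.1-fold in repeat 2. The desert beside Tbx3 held 8 peaks, and outside the leading one none exceeded 31.3-fold in repeat 1 or 28.7-fold in repeat 2. Between Rpl14 and Ctnnb1, 12 peaks lay in 158.746 kb of desert. After the leading one, the highest there was at 183 kb from Ctnnb1, with 41.9-fold and 45.5-fold and 312 and 230 tags. These deserts are shown because each holds a peak chosen for its rank over both repeats, so that a peak leads in both was set by the choice.

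**Figure D5:**
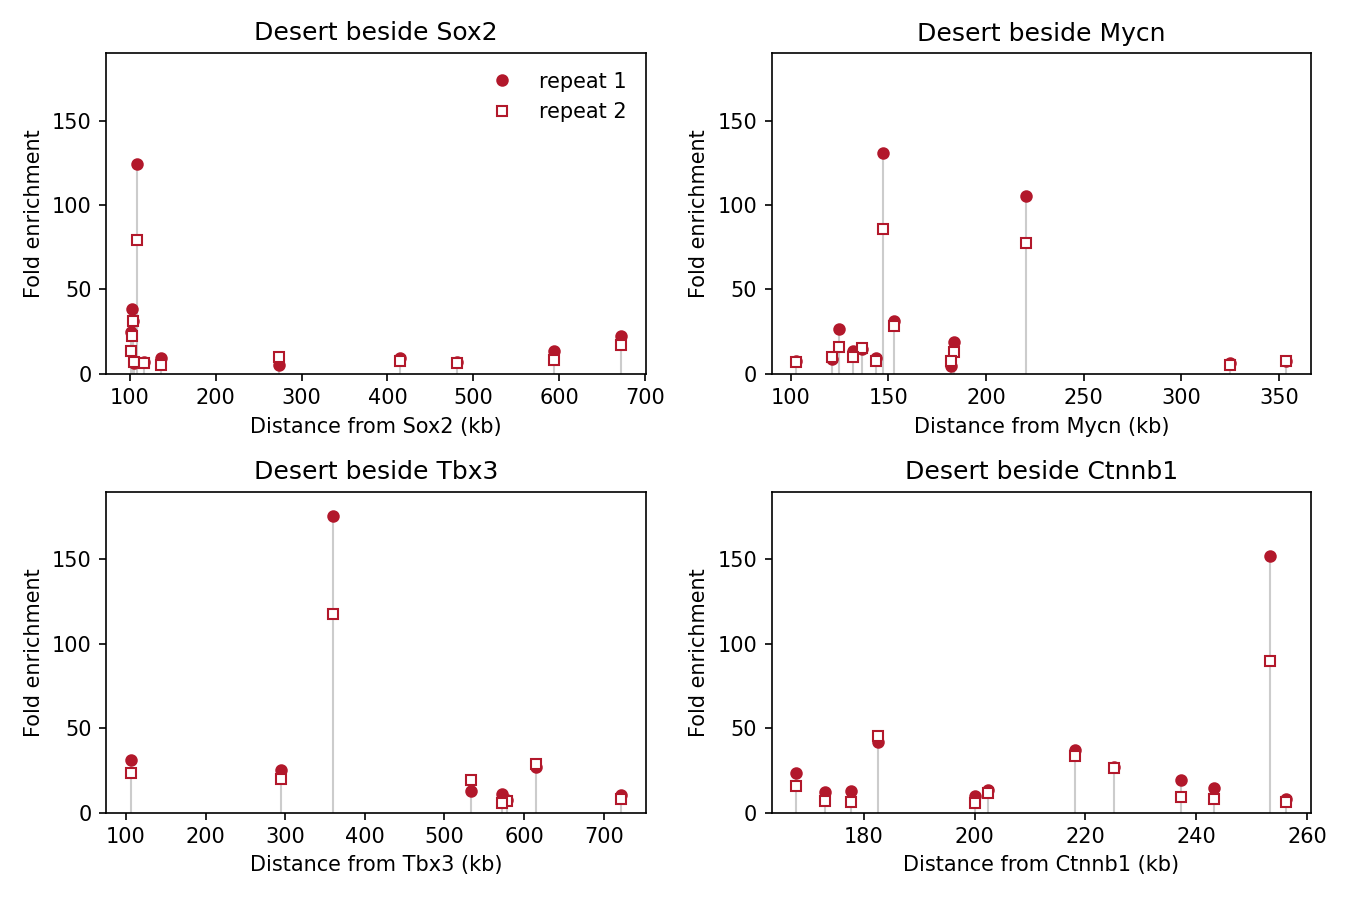
Each panel plots the fold enrichment (y axis) of the desert peaks in 1 desert against their distance in kb from the gene named (x axis), in repeat 1 (filled circles) and repeat 2 (open squares). The leading peaks lie at 109 kb from Sox2, 147 kb from Mycn, 360.0 kb from Tbx3 and 253 kb from Ctnnb1, and these peaks were chosen for their rank over both repeats.

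Gene lists were counted by the nearest gene of each desert peak. Over all 20554 autosomal protein-coding genes, 1104 (5.37%) were the nearest gene of a desert peak, and these were 46.9% of the 2353 genes that border a desert. Genes that border no desert could not be counted, so the share of each list and the share of its bordering genes are both given. No list was tested. Deserts with a peak were also longer, with a median span of 384 kb against 83.5 kb for those without. The lists were not matched for desert length, and its part in their shares was not tested.

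Of 22 naive pluripotency genes, 8 border a desert and 7 were the nearest gene of a desert peak (31.8% of the list and 87.5% of those that border a desert). They had 29 peaks with medians of 10.6-fold and 10.3-fold, against 13.4-fold and 11.0-fold over all desert peaks. Besides Tbx3 and Sox2, they include Nr5a2, a nuclear receptor that regulates Oct4 (Pou5f1), with a strongest peak of 95.7-fold and 49.1-fold at 338 kb, and Klf5, a Krüppel-like factor of naive cells, with 66.7-fold and 59.3-fold at 224 kb. Of 15 formative and primed epiblast genes, 5 border a desert and 3 were counted (20% of the list and 60% of those that border a desert). These were Pou3f1 (79.7-fold and 51.4-fold), Lef1, a nuclear partner of beta-catenin (21.7-fold and 22.0-fold), and Cdh2, which encodes N-cadherin (22.2-fold and 17.3-fold).

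Of 49 homeobox and paired factors, 17 were counted (34.7% of the list and 48.6% of the 35 that border a desert), and the share of bordering genes is close to the 46.9% of all bordering genes. They include Pax3 (111-fold and 32.1-fold), a neural crest and muscle factor whose peak differed most between the repeats among those named here, and Irx3 (53.6-fold and 41.2-fold), an Iroquois factor with 11 desert peaks. Tshz2 (66.2-fold and 32.6-fold) and Irx1 (21.3-fold and 19.6-fold) followed. Of 28 Sox, Fox and GATA factors, 14 were counted (50% of the list and 82.4% of the 17 that border a desert), led by Sox11, a factor of neural progenitors (53.1-fold and 54.9-fold), Sox5 (33.3-fold and 24.3-fold), Gata3 (23.2-fold and 23.6-fold) and Sox4 (29.95-fold and 16.8-fold).

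Of 54 other developmental factors, 22 were counted (40.7% of the list and 59.5% of those that border a desert). Beside Mycn, these were led by Bcl11b, a factor of T cells and neurons (102-fold and 49.8-fold), Rorb, a nuclear receptor (59.4-fold and 54.6-fold), and Klf12 (47.4-fold and 51.8-fold). Of 44 secreted signals and receptors, 14 were counted (31.8% of the list and 51.9% of those that border a desert, the second near the 46.9% of all bordering genes), led by Tgfb2 (65.2-fold and 38.5-fold), Spry2, an inhibitor of FGF signalling (60.4-fold and 32.6-fold), Fgf18 (31.7-fold and 45.9-fold) and Sfrp2, a secreted modulator of Wnt signalling (33.3-fold and 38.5-fold).

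Of 67 neuronal adhesion and guidance genes, 41 were counted (61.2% of the list and 69.5% of the 59 that border a desert), with 111 peaks. Their strongest were beside Cntn3 (52.2-fold and 43.2-fold), Cdh10 (37.7-fold and 36.9-fold), Cntnap5b (44.5-fold and 27.5-fold, 1266 kb away) and Pcdh20 (37.2-fold and 28.7-fold). Of 1454 olfactory and vomeronasal receptors, 24 border a desert and 3 were counted (0.206% of the list and 12.5% of those that border a desert). The peak assigned to Olfr161 had 20.5-fold and 23.8-fold enrichment but 237 and 401 tags, and it lies near the start of the assembled chromosome 16. In all, 16 desert peaks lay within 0.5 Mb of the lowest peak position on an autosome, and the mapping of tags there was not tested.

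MicroRNA genes lay near some desert peaks. Of 114 microRNA genes in deserts, 37 had a desert peak within 10 kb, 29 of them among the 39 in the desert between Rtl1 and Dio3. Those 29 share chr12:109725105-109725953, chr12:109743207-109744211 and chr12:109746814-109747860 as their nearest desert peaks, so they are not independent counts. That desert held 9 peaks, and the strongest, chr12:109880806-109882049, lay 277.005 kb from Rtl1 with 110.15-fold and 82.8-fold enrichment. Outside it, 8 of 75 microRNA genes in deserts had a desert peak within 10 kb. The share of desert sequence that lies within 10 kb of a desert peak was not computed. These counts therefore do not say whether microRNA genes lay closer to desert peaks than other desert sequence. Mir205, an epithelial microRNA, lay 0.58 kb from the summit of a peak with 26.7-fold and 27.1-fold enrichment. Mir124a-2 and the overlapping entry Gm51272 lay 0.886 and 0.909 kb from the summit of 1 peak with 12.6-fold and 7.06-fold. Mir28b lay 1.84 kb from the summit of a peak with 15.5-fold and 28.3-fold, and Mir125b-1 lay 2.09 kb from one with 9.06-fold and 12.6-fold. For Mir205, Mir28b and Mir125b-1, a mature sequence is given to identify each, with the seed in capitals.
mmu-miR-205-5p: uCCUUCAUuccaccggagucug
mmu-miR-28b: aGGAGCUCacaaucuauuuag
mmu-miR-125b-5p: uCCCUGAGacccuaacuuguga

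Desert peaks lay on both sides of their nearest gene. Where RefSeq promoter windows gave the gene's strand, 1018 desert peaks (51.2%, interval 48.9 to 53.4) lay upstream and 972 (48.8%) downstream, and for 673 no strand was known. Medians were 13.5-fold and 11.4-fold upstream and 13.1-fold and 10.6-fold downstream.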

How the data were processed

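Tfcp2l1 ChIP and input libraries of wild-type mouse embryonic stem cells were analysed from 2 deposited peak lists, 1 per repeat. Per the file headers, the authors called peaks with MACS 1.4.1, each ChIP library against its own input, at a p-value of 1e-05, a tag size of 35 bp and at most 2 duplicate tags per position. CASAVA 1.8.2 stands in the submitters' processing notes, while for the aligner no name is given in the sources used here. Each deposited peak has a count of its ChIP tags, which is not normalized, a score that MACS derives from the log10 of its p-value, and a fold enrichment, the ratio of ChIP to local background at the summit. An FDR in percent is also deposited. The notes name mm9, but positions are those of GRCm38: 14.0% of shared summits lay within 1 kb of a GRCm38 gene end, against 5.33% and 5.51% after shifts of 100 kb, on 19 of 19 autosomes, and peaks on chromosome Y reach 90.8 Mb.

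The desert rule was applied to the summit in repeat 1 with the RefSeq gene table of GRCm38.p6 (20554 protein-coding and 12322 lncRNA genes on autosomes), which gives gene ends without exons. The 107 protein-coding entries on scaffolds or patches were left out. A matched peak of repeat 2 is the overlapping one of highest fold. Shares have exact (Clopper-Pearson) 95% intervals, which cover counting error only. Repeats, not peaks, are replicates, so differences are given in each repeat and as a mean with SD. Strand came from the promoter table where it held the gene. The planned motif search at summits needed a genome and was not run, so promoter windows were searched instead, a step chosen after seeing the data. Tools were Python 3.11.15, pandas 2.3.3, numpy 2.4.6, scipy 1.17.1 and matplotlib 3.10.9, and the scripts were tested on simulated data. The genes named are the nearest genes of the 15 strongest peaks by mean rank of fold, the genes beside the 8 deserts with most peaks, up to 4 per gene list by strongest peak, and the peaks farthest from genes or next to the threshold. For some of the 15, the gene on the other side is named too, which was not planned. Other deserts, runs and microRNAs named were chosen after their values were seen. Some regions are not reported here. The regions and the gene lists were chosen with earlier results of these data known. Alternatives were stricter peaks, other overlaps, distances, lncRNA rules and rankings, and each repeat alone.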

Additional observations from a re-analysis of the deposited data

How the results depend on the processing

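In every alternative computed for them, the log2 ratio of median fold and the difference in the share found again stayed below 0, and the density ratio stayed below 1. With FDR 0% in both repeats there were 361 desert peaks (4.84% of shared peaks, density ratio 0.138, 9.42% with a neighbour within 10 kb). With 10-fold in both repeats there were 1344 (5.63%, 0.161, 22.4%), and the difference in the share found again was -2.19 percentage points. Beyond 50 kb there were 4666 (10.8%, 0.231, 39.9%), and beyond 200 kb 1245 (2.88%, 0.127, 21.0%, log2 ratio of median fold -0.23, found again -9.94 points). With peaks at lncRNA gene ends kept, the share was 6.496% and the density ratio 0.184, and with peaks in or within 10 kb of lncRNA genes left out they were 4.46% and 0.157, with 27.8% neighboured. Summits within 100 bp gave 29.1% neighboured. Without ChIP replicate 1 or 2, using each list alone, the number was 3331 to 3889, the share 6.54% to 6.87%, the log2 ratio -0.27 to -0.13, the density ratio 0.189 to 0.199 and the neighboured share 30.9% to 34.3%. Of the 15 strongest peaks, 7 were kept by rank on tags, and 9 to 11 by rank in 1 repeat. By score, the 25 peaks with top values in both repeats hold 14 of them. With genes on both sides counted, formative and primed epiblast genes numbered 5. Beyond 200 kb, Sox, Fox and GATA factors numbered 9, other developmental factors 13, secreted signals 5 and olfactory and vomeronasal receptors 1, and beyond 50 kb the last numbered 7. Added after seeing the data, letting antigen receptor segments bound deserts left 2623 peaks, and letting predicted genes not bound them gave 2780 (6.43%). The cause of these shifts was not tested, beyond what each rule takes in or leaves out. No paired analysis was possible because input enters these data solely as the background of the authors' own peaks. Peaks not found again had median tags of 28 and 27 in deserts and of 28 and 28 outside them, and the part of depth was not tested.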

Other observations

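Chromosome X was outside the rule. The same distances held there for 57 of 575 shared peaks (9.91%). Of 156 such peaks of repeat 1 on chromosome X, 36.5% overlapped a peak of repeat 2, against 66.5% of the other 779 on that chromosome. The shared desert peaks there had medians of 11.3-fold and 8.63-fold.

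The desert between Irx3 and Irx5, an Iroquois gene pair, held 13 desert peaks, of which 8 reached 10-fold in both repeats. The highest lay at 264 kb from Irx3 with 56.0-fold and 27.9-fold and at 121 kb with 53.6-fold and 41.2-fold. Neighbouring peaks at 269 and 270.142 kb from Irx3 share 1 peak of repeat 2 (14.9-fold), so their values there are not independent.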
